A study of Mus musculus with 6 samples.

Results

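*Pappa2* and the IGF-binding protein system were followed in MIN6 cells through 7 genes, *Pappa2*, *Stc1*, *Stc2*, *Igfbp3*, *Igfbp4*, *Igfbp5* and *Igf2*, out of 16640 genes with counts. The genes were chosen by their read counts in these same libraries, namely by the difference between conditions within each replicate number and by the difference of replicate 3 from replicates 1 and 2. Both differences are therefore given as a description with no test. Counts were at hand for 6 of the 7 genes, and 5 of them passed the filter on low counts. *Igfbp3* was not analysed here, and *Igfbp5* lay near the floor of 3 counts.

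PAPP-A2, the product of *Pappa2*, is a secreted metalloproteinase that cuts IGF-binding proteins, chiefly IGFBP3 and IGFBP5, and so frees the IGF bound to them. Its relative PAPP-A, the product of *Pappa*, cuts IGFBP4. The stanniocalcins, encoded by *Stc1* and *Stc2*, are secreted proteins that inhibit these proteases. IGF2 is the ligand that the system holds or releases, and it acts on β-cells through the IGF1 receptor and the insulin receptor.

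MIN6 is a mouse β-cell line derived from an insulinoma. All 6 libraries came from cells that carried lentiviral dCas9, a Cas9 that binds DNA without cutting it. Control cells held a non-targeting sgRNA, and *Thada*-activated cells held an sgRNA to the *Thada* promoter with the SAM activators (dCas9-VP64 and MS2-P65-HSF1) and had passed puromycin and G418 selection. Selection of the control cells is not stated. Libraries of total RNA, 3 for each condition and numbered 1 to 3, were read on a BGISEQ-500. Each condition was 1 line, so a difference between the lines cannot be told apart from an effect of the activation. The study states in general terms that its cell work was repeated independently, but not which culture each library came from. The p-values measure the spread between these libraries.

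The control libraries held 17272834, 17166511 and 17689611 counts for replicates 1, 2 and 3, and the *Thada*-activated libraries held 17727004, 17385036 and 17224631. At these depths 3 counts, taken as the floor, came to between 0.169 and 0.176 CPM (counts scaled to library size by TMM). Replicate 3 stood apart from replicates 1 and 2 in both conditions. The first principal component of the 12516 genes that passed the filter on low counts held 83.8% of the variance. It placed the replicate 3 libraries at 48.6 and 43.4 and the other 4 between -23.5 and -22.1. What set replicate 3 apart was not tested. Each comparison below was therefore made within a replicate number as well as over all libraries.

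*Thada*, the gene that the activator targets, was read first as a check of the labels. It had 28.0, 28.9 and 17.2 CPM in control replicates 1, 2 and 3 and 57.3, 56.2 and 49.1 CPM in the *Thada*-activated ones. All 3 *Thada*-activated libraries lay above all 3 controls. The log2 fold change was 1.13 (SE 0.22, edgeR quasi-likelihood test, adjusted p = 1.00, n = 3). When the replicate number entered the fit as a block, it was 1.15 (SE 0.10, edgeR adjusted p = 0.00041).

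The β-cell label was read on its markers. All 10 β-cell markers had counts, led by *Ins2*, and their summed level ran from 97630 to 131400 CPM. *Slc2a2*, the glucose transporter of mouse β-cells, was the exception, with between 1 and 9 counts per library. The sum rests mostly on *Ins2*, and single markers differed in replicate 3 in both directions: the fitted log2 difference from replicates 1 and 2 was 0.82 for *Ins1* and 0.57 for *Ins2*, but -1.24 for *Ucn3*, -1.03 for *Pdx1*, -0.61 for *Mafa*, -0.58 for *Iapp*, -0.41 for *Neurod1*, -0.33 for *Nkx6-1* and -0.26 for *G6pc2*. Of the other islet hormones and their markers, *Sst* (-1.14), *Ttr* (-0.80) and *Gcg* (-0.34) were lower there and *Ppy* (0.70), *Rbp4* (0.64) and *Irx2* (0.49) higher. Of 19 markers of acinar, fibroblast or stellate, endothelial and macrophage cells, 10 had counts, 4 were at or under the floor in every library, and none of the 10 exceeded 3.47 CPM. The summed fibroblast and stellate markers, 4 of 7 with counts and led by *Col1a1*, were 3.10, 2.79 and 4.87 CPM in control replicates 1, 2 and 3 and 3.21, 3.79 and 6.37 CPM in the *Thada*-activated ones. Within that sum *Col1a1* had 24, 22 and 56 counts in control and 18, 31 and 61 in *Thada*-activated cells. *Dcn* was also highest in replicate 3, with 5, 1 and 13 counts and then 5, 4 and 13. *Col1a2* differed from these, with 21, 25 and 14 counts and then 34, 29 and 34. The macrophage marker *Cd68* was lowest in replicate 3, with 19, 10 and 7 counts in control and 22, 17 and 10 in *Thada*-activated cells. *Pecam1*, an endothelial marker, had 6, 6 and 22 counts in control and 6, 8 and 19 counts in *Thada*-activated replicates 1, 2 and 3. Ductal markers are not given. The part of such cells in the differences given below was not tested.

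Per length, the system was made almost wholly of ligand and protease. *Igf2* had between 1812 and 2626 FPKM (fragments scaled by gene length and library size) and was the 11th to 16th highest of all genes in a library, and *Pappa2* had between 106.0 and 485 FPKM. *Igfbp4* followed at 2.30 to 7.46 FPKM, *Stc1* at 0.90 to 1.49, *Stc2* at 0.24 to 0.56 and *Igfbp5* at 0 to 0.16. The FPKM ranges of neighbours in this order did not overlap, so the order was the same in all 6 libraries. *Pappa*, the relative that cuts IGFBP4, stood at 0.17 to 0.27 FPKM, and the FPKM of *Pappa2* was between 424 and 2851 times as high in the same library.

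*Pappa2* (gene 23850, minus strand of chromosome 1, bases 158711727 to 158980490, GRCm38, GENCODE M21) carried 73518, 72762 and 25266 counts in control replicates 1, 2 and 3. The *Thada*-activated libraries had 50169, 50728 and 15984 counts. In each replicate number the *Thada*-activated library was the lower, and in each condition replicate 3 was the lowest. The same values scaled to library size were 4304, 4233 and 1449 CPM in control and 2824, 2916 and 909 CPM in *Thada*-activated cells, or 3329 ± 1629 and 2216 ± 1133 CPM (mean ± SD, n = 3 each). The condition ranges overlapped because control replicate 3 lay below *Thada*-activated replicates 1 and 2.

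Within a replicate number, the *Pappa2* log2 ratio of *Thada*-activated over control was -0.61 in replicate 1, -0.54 in replicate 2 and -0.67 in replicate 3. With 95% exact (Clopper-Pearson) intervals that cover counting error only, these ratios spanned -0.62 to -0.59, -0.55 to -0.52 and -0.70 to -0.64. The control library was thus 1.52, 1.45 and 1.59 times as high as its *Thada*-activated counterpart. Over all libraries the log2 fold change was -0.59 with an SE of 0.59, and with the replicate block -0.61 with an SE of 0.06. The unblocked value depended on which libraries were in the fit: it was -0.36, -0.38 and -0.95 without control replicate 1, 2 or 3, -0.80, -0.84 and -0.21 without *Thada*-activated replicate 1, 2 or 3, and -0.57 in replicates 1 and 2 alone.

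The larger difference in *Pappa2* was between replicate numbers. Replicate 3 was 2.95 times lower than replicates 1 and 2 in control cells and 3.16 times lower in *Thada*-activated cells, log2 ratios of -1.56 (-1.58 to -1.54) and -1.66 (-1.68 to -1.64). By FPKM, *Pappa2* ranked 113 and 111 among all genes in control replicates 1 and 2 and 406 in control replicate 3, and 198, 186 and 658 in *Thada*-activated replicates 1, 2 and 3. The fitted log2 difference was -1.61 (SE 0.06).

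**Figure D1:**
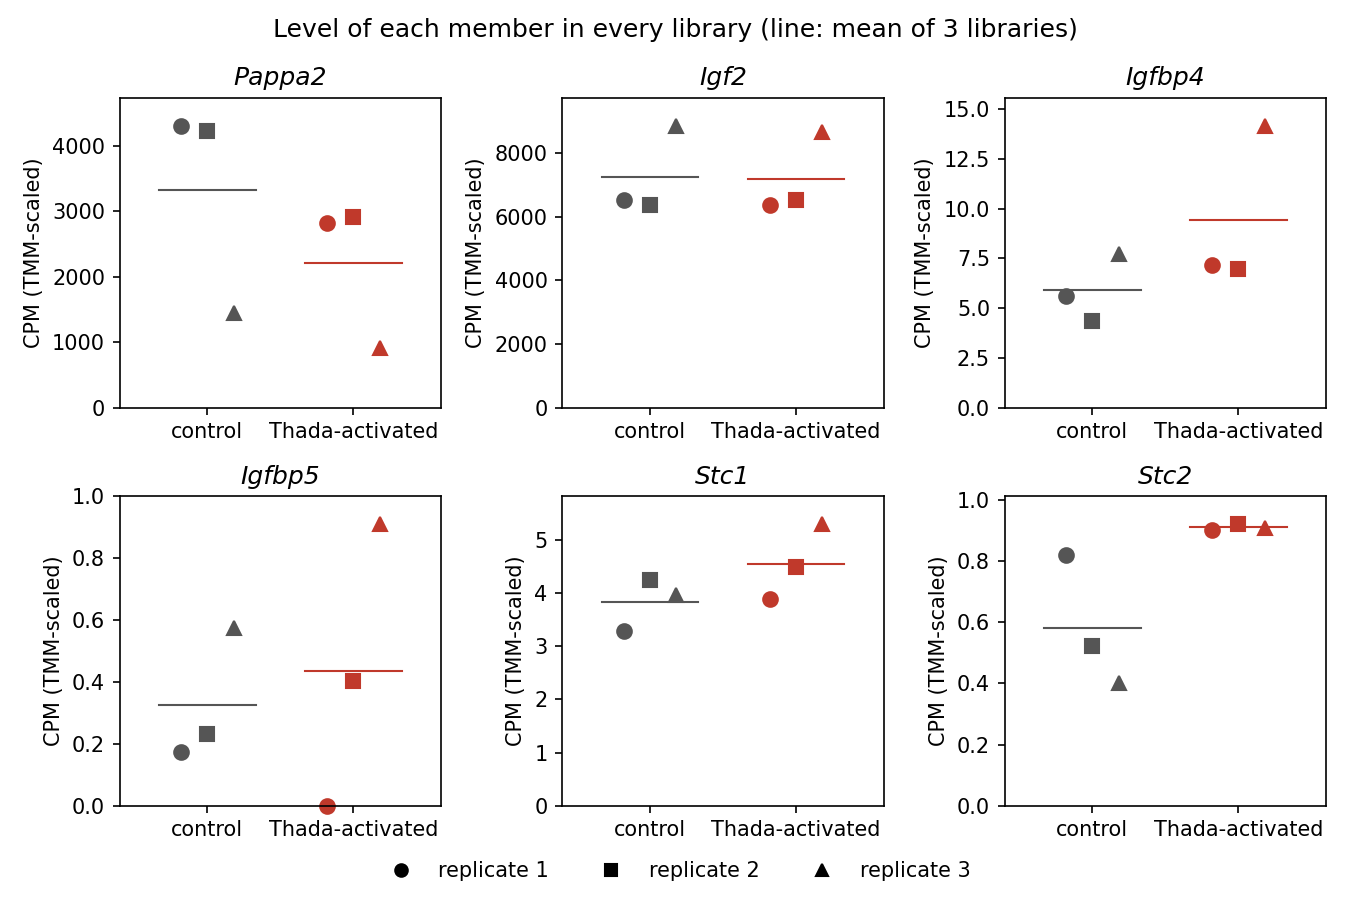
Level of each of the 6 genes with counts, in CPM on linear axes that start at 0, in control and *Thada*-activated libraries. Each symbol is 1 library, its shape gives the replicate number and the line is the mean of 3 libraries. *Pappa2* is lowest in replicate 3 of both conditions (1449 and 909 CPM), whereas *Igfbp4*, *Igfbp5* and *Igf2* are highest there.

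*Igf2* (gene 16002, minus strand of chromosome 7, bases 142650766 to 142666816) is imprinted and is expressed from the paternal copy in most fetal tissues. It had 111225, 109450 and 154125 counts in control replicates 1, 2 and 3 and 112993, 113597 and 152207 counts in *Thada*-activated cells, between 6360 and 8837 CPM. The conditions overlapped throughout, and replicate 3 was the highest in both. The pair log2 ratios were -0.03, 0.04 and -0.03, and the log2 fold change between conditions was -0.01 (SE 0.22, or 0.06 with the block). Replicate 3 stood above replicates 1 and 2 by 0.46 in control and 0.42 in *Thada*-activated cells on the log2 scale, 1.37-fold and 1.34-fold. With *Pappa2* lower and *Igf2* higher, the FPKM of *Igf2* was 3.79, 3.76 and 16.1 times that of *Pappa2* in control replicates 1, 2 and 3 and 5.75, 5.75 and 23.8 times in *Thada*-activated ones.

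*Igfbp4* (gene 16010, plus strand of chromosome 11, bases 99041244 to 99054392) was the most abundant of the binding proteins among the members and differed in the direction opposite to *Pappa2* in both comparisons. The control libraries had 96, 75 and 135 counts and the *Thada*-activated libraries 127, 121 and 249, or 5.62, 4.36 and 7.74 against 7.15, 6.96 and 14.2 CPM. In each replicate number the *Thada*-activated library was the higher, although control replicate 3 exceeded *Thada*-activated replicates 1 and 2, so the conditions overlapped. The pair log2 ratios were 0.35 (-0.05 to 0.74), 0.67 (0.25 to 1.11) and 0.87 (0.56 to 1.18), and the interval of replicate 1 included 0. The log2 fold change between conditions was 0.67 (SE 0.37), 0.65 (SE 0.14) with the block and 0.25 without *Thada*-activated replicate 3. Replicate 3 was higher by 0.63 (0.30 to 0.97) in control and 1.00 (0.75 to 1.26) in *Thada*-activated cells on the log2 scale.

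*Igfbp5* (gene 16011, minus strand of chromosome 1, bases 72857932 to 72874884), a substrate of PAPP-A2, had 3, 4 and 10 counts in control replicates 1, 2 and 3 and 0, 7 and 16 counts in *Thada*-activated ones. Both replicate 1 libraries were at or under the floor, so no fold is given for that pair. The pair log2 ratios of replicates 2 and 3 were 0.79 (-1.19 to 3.01) and 0.67 (-0.56 to 1.97), and a difference between conditions was not detectable at this depth. Replicate 3 was the highest in both conditions, with log2 ratios over replicates 1 and 2 of 1.49 (-0.05 to 3.12) in control and 2.19 (0.83 to 3.71) in *Thada*-activated cells.

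The inhibitors were low. *Stc1* (gene 20855, plus strand of chromosome 14, bases 69029238 to 69041804) had 56, 73 and 69 counts in control and 69, 78 and 93 counts in *Thada*-activated replicates 1, 2 and 3. The *Thada*-activated library was the higher in each pair, by log2 ratios of 0.24, 0.08 and 0.42, but each 95% counting interval included 0. *Stc2* (gene 20856, minus strand of chromosome 11, bases 31357307 to 31370074) had 14, 9 and 7 counts in control and 16 counts in each *Thada*-activated library. Its conditions did not overlap, yet the pair log2 ratios of 0.14 (-0.99 to 1.28), 0.81 (-0.45 to 2.17) and 1.18 (-0.18 to 2.70) all had intervals that included 0. The log2 fold changes were 0.25 (SE 0.22, and 0.13 to 0.35 with 1 library left out) for *Stc1* and 0.64 (SE 0.35, and 0.43 to 0.97) for *Stc2*. Replicate 3 differed from replicates 1 and 2 by 0.21 (SE 0.17, and 0.07 to 0.34 with 1 library left out) in *Stc1* and by -0.28 (SE 0.36, and -0.73 to -0.00042) in *Stc2*. For *Stc2* it was -0.73 within control and 0.0062 within *Thada*-activated cells.

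Counted over the 5 members that passed the filter, 1 (*Pappa2*) was lower in all 3 pairs and 3 (*Igfbp4*, *Stc1* and *Stc2*) were higher in all 3, where 16.7% of the 12516 tested genes were lower and 16.3% were higher in all 3 pairs. The conditions did not overlap for 1 member (*Stc2*, higher) and for 0 members in the lower direction, against 2.69% and 2.72% of tested genes. Both replicate 3 libraries lay beyond the other 4 with a fitted fold change over 1.5 for 1 member in the higher direction (*Igfbp4*) and 1 in the lower (*Pappa2*), where 15.8% and 15.4% of tested genes did so. The choice of the members used these differences, and nothing is read from the counts. Because this is bulk RNA, fewer cells that express a gene and less of its RNA per cell cannot be told apart.

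**Figure D2:**
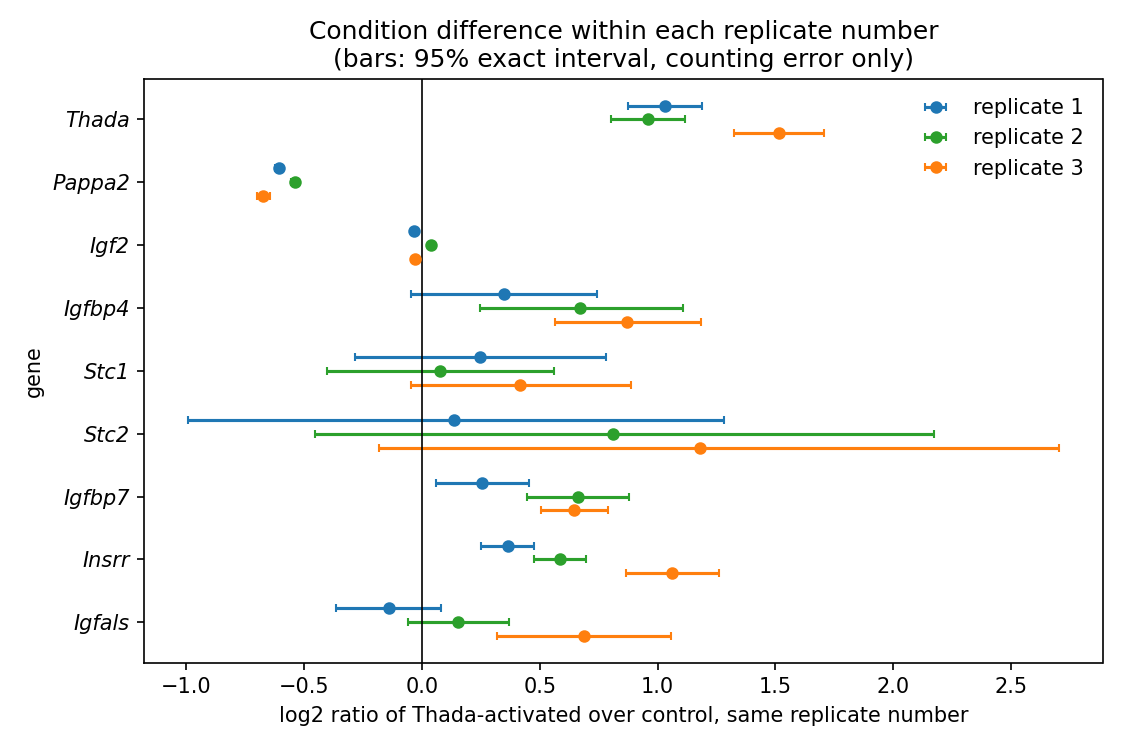
Log2 ratio of *Thada*-activated over control within replicates 1, 2 and 3 for *Thada*, 5 members and 3 other IGF pathway genes. Points are ratios of scaled counts and bars are 95% exact intervals for counting error only. *Pappa2* lies between -0.67 and -0.54, *Igf2* within 0.04 of 0, and the ratio of *Insrr* is larger in replicate 3 (1.06) than in replicates 1 and 2 (0.36 and 0.59).

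The condition effect in replicate 3 less that in replicates 1 and 2 draws on the same pair ratios by which the members were chosen, so for them it is a description with no test. The fitted log2 value, with its range when 1 library of replicate 1 or 2 was left out, was -0.10 (SE 0.08, -0.12 to -0.08) for *Pappa2*, 0.37 (SE 0.24, 0.18 to 0.54) for *Igfbp4*, 0.27 (SE 0.33, 0.07 to 0.44) for *Stc1*, 0.73 (SE 0.78, 0.38 to 1.02) for *Stc2* and -0.03 (SE 0.08, -0.05 to -0.01) for *Igf2*. Replicate 3 has 1 library per condition, so these SEs come from the spread within replicates 1 and 2, drawn toward that of the other tested genes.

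The other genes of the IGF pathway were read from a list of 31 ligands, receptors, binding proteins, proteases, RNA-binding proteins and adaptors. Of these 24 had counts and 18 passed the filter on low counts. *Igf1*, *Igfbpl1*, *Htra1*, *Adam12*, *Tmprss6* and *Grb10* had counts but did not pass it. *Igfbp1*, *Igfbp2*, *Adam28*, *Prg2*, *Igf2bp1*, *H19* and *Irs4* were not analysed here.

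Between conditions, 0 of the 18 list genes and 0% of the 12516 tested genes were called by edgeR without a block, a call being an adjusted p under 0.05 and a fold change over 1.5. At an unadjusted p under 0.05 there were 0 list genes and 101 genes in all, and the Wald test of DESeq2 called 0 list genes and 5 genes in all. The median log2 fold change of the list was 0.05, beside -0.00396 over all tested genes. Blocking on the replicate number, 1 list gene was called, *Insrr*, which was higher, where 0.104% of tested genes were called higher and 0.0479% lower (13 and 6 genes). The blocked median of the list was 0.05, beside -0.000915 over all tested genes.

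*Insrr* encodes the insulin receptor-related receptor, a relative of the insulin and IGF1 receptors that responds to alkaline pH. It had 67.9, 64.4 and 18.1 CPM in control and 87.4, 96.7 and 37.7 CPM in *Thada*-activated libraries. In 3 of 3 pairs the *Thada*-activated library was the higher, with log2 ratios of 0.36, 0.59 and 1.06. The blocked log2 fold change was 0.63 (SE 0.10, edgeR adjusted p = 0.034), against 0.56 (SE 0.57, adjusted p = 1.00) without the block, which ran from 0.16 without control replicate 3 to 0.88 without *Thada*-activated replicate 3. The blocked call was also made without both replicate 1 libraries (0.80, edgeR adjusted p = 0.00040), and was not made without both replicate 2 libraries (0.67, edgeR adjusted p = 0.15) or without both replicate 3 libraries, where the log2 fold change of 0.48 was under the fold threshold.

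*Igfbp7* encodes a secreted protein related to the IGF-binding proteins with low affinity for IGFs. It had 22.4, 16.6 and 37.7 CPM in control and 26.8, 26.3 and 59.0 CPM in *Thada*-activated replicates 1, 2 and 3. It was higher in 3 of 3 pairs and its blocked log2 fold change was 0.53 (SE 0.09, edgeR adjusted p = 0.044), a 1.44-fold difference under the fold threshold. The edgeR adjusted p was 1.00 without the block. With the block and both libraries of replicate 1, 2 or 3 left out, the log2 fold change was 0.65, 0.47 or 0.45 (edgeR adjusted p = 0.0021, 0.13 and 0.00091), and only the first of these passed the fold threshold and was called. The unblocked log2 fold change of 0.55 ran from 0.05 without *Thada*-activated replicate 3 to 0.94 without control replicate 3. *Igfbp7* was thus higher in *Thada*-activated cells in every pair and higher in replicate 3 of both conditions, as *Igfbp4* was. Several cell-type markers were also higher in 3 of 3 pairs. The β-cell gene *Ucn3* had a blocked log2 fold change of 0.52 (SE 0.09, edgeR adjusted p = 0.034), under the fold threshold. Blocked values were 0.45 for *Rbp4* (edgeR adjusted p = 0.28) and 0.33 for *Ppy* (edgeR adjusted p = 0.21). The fibroblast marker *Col1a2* had 0.67 (edgeR adjusted p = 0.43), and its conditions did not overlap. The macrophage marker *Cd68* had 0.42 (edgeR adjusted p = 0.71). The β-cell markers *Nkx6-1* and *Neurod1* had 0.14 and 0.10 (edgeR adjusted p = 0.53 and 0.63). By FPKM *Igfbp7* exceeded *Igfbp4* in each library, at 17.5 to 60.9 against 2.30 to 7.46.

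The receptors of IGF2 were detected in every library. *Igf1r* stood at 6.09 to 9.04 FPKM, *Insr* at 5.47 to 6.36 and *Igf2r*, which takes IGF2 up for breakdown, at 22.8 to 31.0. The blocked log2 fold changes between conditions were 0.13 for *Igf1r*, -0.01 for *Insr* and 0.05 for *Igf2r*, with SEs of 0.06, 0.07 and 0.06, and none of the 3 passed the edgeR test. *Igf1*, the other IGF ligand, had 2 counts in control replicate 3 and 0 in each of the other libraries, so *Igf2* was the only IGF ligand above the floor in these libraries.

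Both replicate 3 libraries lay above the other 4 with a fitted fold change over 1.5 for 3 list genes (*Ins1*, *Igfbp6* and *Igfbp7*) and below them for 3 (*Insrr*, *Igfals* and *Igf2bp2*), that is 16.7% of the 18 list genes each way, where 15.8% and 15.4% of tested genes did so. *Htra1*, a protease that did not pass the filter, had 0, 2 and 33 counts in control and 6, 6 and 30 counts in *Thada*-activated replicates 1, 2 and 3. The median log2 difference of the 18 list genes was -0.06, beside 0.00105 over all tested genes. *Insrr* was lower, with log2 ratios of -1.87 in control and -1.29 in *Thada*-activated cells, and *Igfbp7* was higher, with 0.95 and 1.15. Values scaled as TPM shift the median of the tested genes by -0.18 in this comparison, taken on log2(TPM + 0.1), so TPM differences are read relative to it. Before that shift is taken into account, the TPM differences were -1.78 for *Pappa2*, 0.54 for *Igfbp4* and 0.28 for *Igf2*. These were fitted on log2(TPM + 1), so the shift is only a rough guide to them.

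**Figure D3:**
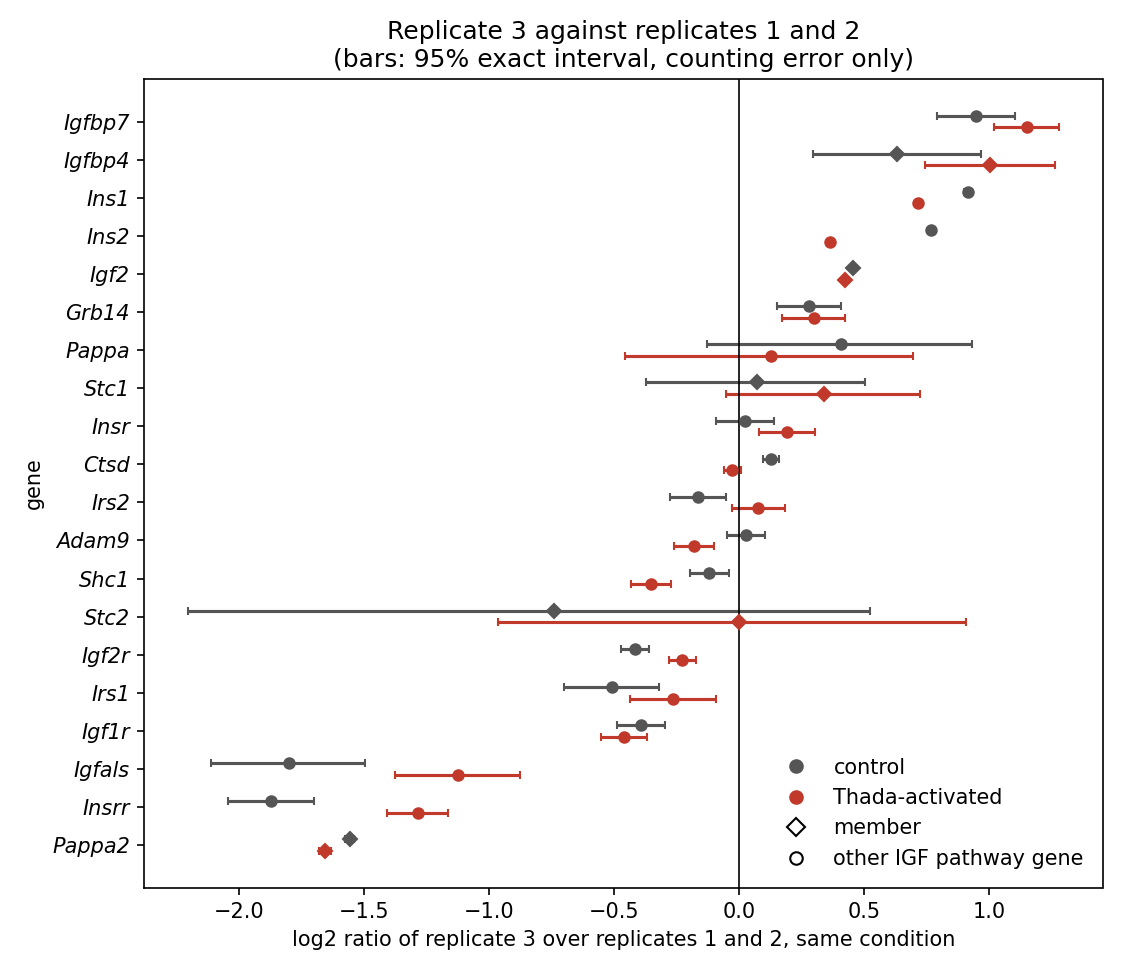
Log2 ratio of replicate 3 over replicates 1 and 2 within control and within *Thada*-activated cells, for the 5 members that passed the filter and the 15 list genes with a mean of at least 1 CPM. Points are ratios of scaled counts and bars are 95% exact intervals for counting error only. *Pappa2* is lowest among these genes in *Thada*-activated cells (-1.66), in control cells *Insrr* (-1.87) and *Igfals* (-1.80) lie below it (-1.56), and *Igfbp4*, *Igf2* and *Igfbp7* lie above 0 in both conditions.

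For the condition effect in replicate 3 against replicates 1 and 2, tested by an interaction term in edgeR, 2 of the 18 list genes and 1.81% of the 12516 tested genes were called. Replicate 3 has 1 library per condition, so the spread in this test came from replicates 1 and 2. Each gene had 2 residual degrees of freedom, and edgeR drew its spread toward that of the other tested genes. The SEs and p-values of this test thus also rest on the spread of other genes. A difference of 1 library cannot be told apart from a difference of the effect. The 2 genes were *Insrr* and *Igfals*, the acid-labile subunit that holds IGF and its binding protein in a circulating complex. *Igfals* had 20.5, 19.8 and 5.79 CPM in control and 18.6, 22.1 and 9.32 CPM in *Thada*-activated replicates 1, 2 and 3. Its pair log2 ratio was -0.14 in replicate 1, 0.15 in replicate 2 and 0.69 in replicate 3. The interaction was 0.68 (SE 0.22, edgeR adjusted p = 0.046) for *Igfals* and 0.59 (SE 0.13, edgeR adjusted p = 0.0020) for *Insrr*. Neither call was made under every alternative: that of *Igfals* was lost without *Thada*-activated replicate 1 (adjusted p = 0.24) or 2 (adjusted p = 0.055), and that of *Insrr* with DESeq2 (adjusted p = 0.079). The interaction of *Insrr*, 0.587 and only just over the fold threshold, was also under it with no filter (0.583), without control replicate 1 (0.55) and without *Thada*-activated replicate 1 (0.51).

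The genes whose log2 CPM followed *Pappa2* most closely over the 6 libraries, among 12060 genes with a mean of at least 1 CPM, were *Nucb2*, *Cwc22*, *Mdm2*, *Rad17* and *Mtrf1l*, with Pearson's r of 0.999, 0.998, 0.998, 0.998 and 0.998. *Nucb2*, which encodes the precursor of nesfatin-1, had 337, 342 and 181 CPM in control and 264, 266 and 139 CPM in *Thada*-activated replicates 1, 2 and 3. Like *Pappa2* it was lower in each *Thada*-activated library than in its control and lowest in replicate 3, but over a smaller span. The r is a description over 6 libraries of which 2 stand apart, and 650 of the 12060 genes had an r over 0.95 with *Pappa2*.

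For *Igfbp4* the closest genes were *Pcp4*, *Dio1* and *Pla2g2f* (r of 0.994, 0.994 and 0.993), and *Pla2g2f* had 2.34, 1.63 and 4.01 CPM in control and 2.93, 3.16 and 10.1 CPM in *Thada*-activated replicates 1, 2 and 3. For *Igf2* they were *Ncor1*, *Slc25a23* and *Hnrnph3*, each with an r of 1.000, but 1841 genes had an r over 0.95 with *Igf2*. For *Stc1* they were *Tent5b*, *Hivep3* and *4933430I17Rik* (r of 0.984, 0.972 and 0.965), and for *Stc2* *Aacs*, *Tmem80* and *Acox3* (r of 0.989, 0.986 and 0.981).

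*Igfbp4* and *Pappa2* differed in opposite directions in both comparisons, and the bases before their starts are shown for that reason, from RefSeq on GRCm38.p6. RefSeq promoter entries were found for 5 of the 6 members with counts. Only bases that lie in no GENCODE M21 exon are printed. This left 250 bases for *Igfbp4* (chr11:99040994-99041243, plus strand) and 58 for *Pappa2* (chr1:158958368-158958425, minus strand). For *Pappa2* an annotated exon begins upstream of the RefSeq start, so the printed bases end before that start. They lie inside the span given above for the *Pappa2* gene, and their place relative to each transcript was not examined. Capitals mark matches, on either strand, to the TATA motif TATAAA, to the CCAAT box, to the GC box GGGCGG, to the E-box CACGTG or to the cAMP response element TGACGTCA.
Igfbp4: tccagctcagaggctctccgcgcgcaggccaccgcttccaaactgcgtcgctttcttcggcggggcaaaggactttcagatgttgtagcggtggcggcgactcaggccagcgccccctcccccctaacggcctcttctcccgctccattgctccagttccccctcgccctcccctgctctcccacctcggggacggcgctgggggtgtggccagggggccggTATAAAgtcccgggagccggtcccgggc
Pappa2: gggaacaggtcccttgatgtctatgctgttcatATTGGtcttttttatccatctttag
The *Igfbp4* stretch held 1 TATAAA, which began 28 bases before its end, and 12.4% of 32841 promoter entries held that motif in a window of the same length and place. The *Pappa2* stretch held 1 CCAAT, on the other strand, and 7.97% of entries held that motif on either strand in the same window. No match to the other motifs was found in either window. G and C made up 69.2% of the *Igfbp4* bases and 39.7% of the *Pappa2* bases, where the medians over all entries in the same windows were 52.4% and 50.0%. A match describes letters in a window and is no evidence of a bound factor.

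The counting is not stated to use strand. *Igf2* overlaps the antisense gene *Igf2os*, the coding gene *Gm49394* and *Mir483*, *Stc1* overlaps the antisense gene *Gm41192*, and *Pappa2* overlaps the long non-coding gene *1600012P17Rik* on its own strand. None of these 5 neighbours had counts of its own here, so reads from them and from the members cannot be told apart.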

How the data were processed

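The members and lists were chosen with earlier results of these data known. Per the labels and the submitters' processing notes, which name Bowtie2, RSEM, DESeq2 and GRCm38 without versions, the authors deposited an estimated count per gene and library, not normalized. The authors also deposited FPKM (scaled by gene length and library size) and TPM values, and their own averages, fold changes and p-values, which were not used.

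Counts were rounded to whole numbers. The filter was filterByExpr and the scaling TMM, both of edgeR 4.0.16 in R 4.3.3, whose robust quasi-likelihood F-test compared conditions, with Benjamini-Hochberg adjustment over 12516 genes. A call needed an adjusted p under 0.05 and a fold change over 1.5. Replicate 3 and its interaction with condition were added as terms in separate fits. Fits were tested on simulated data. The simulation for the fit without a block left out the shift of replicate 3, so it does not show how that fit performs with such a shift. Named genes were the 7 members, all list genes, cell-type markers, *Thada*, and the 5 (*Pappa2*) or 3 (other members) genes with the highest r. Alternatives used DESeq2 1.42.0, limma 3.58.1, other filters, scalings, blocks and left-out libraries. Intervals and floors cover counting error only. With 3 libraries against 3, an exact two-sided permutation test cannot go below p = 0.1, so none was run.

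The replicate numbers come from the sample labels. Deviations from the condition mean correlated across genes at 0.746, 0.740 and 0.895 between the libraries that share number 1, 2 or 3, so the numbers were taken to pair the libraries. Replicate 1 set against 2 gave 0.770 and 0.769, and either of them against 3 gave -0.829 to -0.817, so the pairing separates replicate 3 and not 1 from 2. No 2 libraries of a condition agreed within sampling noise (chi-square per degree of freedom of at least 1.83).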

Additional observations from a re-analysis of the deposited data

Results flagged for a closer look

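The interaction test of edgeR sets the condition effect in replicate 3 against that in replicates 1 and 2. Among the members, list genes, cell-type markers and *Thada*, it gave an adjusted p under 0.05 for 7 genes. Over all 12516 tested genes, 1.81% were called with the fold threshold added, and 2643 had an unadjusted p under 0.05. The share of all tested genes at an adjusted p under 0.05 alone is not given, so nothing is read from the count of 7. Replicate 3 has 1 library per condition, so the spread in this test is taken from replicates 1 and 2, drawn toward that of the other tested genes. A difference of 1 library cannot be told apart from a difference of the condition effect. *Ins2*, an insulin gene and a ligand of the list, had an interaction of -0.40 on the log2 scale (adjusted p = 0.0019), with pair log2 ratios of -0.0031, 0.16 and -0.33 in replicates 1, 2 and 3. *Insrr* had an interaction of 0.59 (adjusted p = 0.0020) and was higher in 3 of 3 pairs. *Igfals* had an interaction of 0.68 (adjusted p = 0.046) and was higher in 2 of 3 pairs. *Thada* itself had an interaction of 0.52 (adjusted p = 0.0093), with pair log2 ratios of 1.03, 0.96 and 1.51, and was higher in 3 of 3 pairs. The β-cell markers *Iapp*, *G6pc2* and *Mafa* had interactions of 0.42, 0.51 and -0.46 (adjusted p = 0.00032, 0.00074 and 0.0046). Their pair log2 ratios were -0.24, -0.12 and 0.24 for *Iapp*, -0.13, -0.39 and 0.24 for *G6pc2* and 0.14, 0.35 and -0.22 for *Mafa*. All but *Insrr* and *Igfals* were under the fold threshold. Over the alternatives that gave a value, which were not run for the 3 markers, the adjusted p ranged from 5.3e-14 to 0.22 for *Ins2*, from 5.0e-05 to 0.079 for *Insrr*, from 0.019 to 0.24 for *Igfals* and from 0.0015 to 0.064 for *Thada*.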

How the results depend on the processing

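The direction of the condition difference of *Pappa2* (lower) and of *Igfbp4*, *Stc1* and *Stc2* (higher) held under every alternative that gave a value, and that of *Igf2* ran from -0.17 to 0.16. The count of 0 genes called between conditions was also 0 with DESeq2 size factors, no filter, at least 10 counts in every library, limma on FPKM, library sizes without the 20 top genes and each library left out. It became 5 with the DESeq2 Wald test, 19 with the replicate block, 42 with replicate 3 as a term and 68 in replicates 1 and 2 alone, and 43, 18 and 70 with the block when both libraries of replicate 1, 2 or 3 were left out. List genes called were 1 with the replicate block, 1 with replicate 3 as a term and 2 (*Insrr* and *Igfbp7*) with the block without replicate 1. For the interaction, 227 genes were called, against 40 with DESeq2 and 159 to 345 without 1 library, the highest without control replicate 1.

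The condition difference of *Stc2* was 0.21 with limma on log2(FPKM + 1), 0.44 in replicates 1 and 2 alone, 0.98 and 0.44 with the block without replicates 1 and 3, and 0.43 to 0.97 with 1 library left out. The replicate 3 difference of *Pappa2* was -1.56 within control and -1.65 within *Thada*-activated cells, and -1.66 to -1.56 with 1 library left out. That of *Igfbp4* was 0.66 with log2(FPKM + 1), 0.63 within control cells and 0.63 to 1.00 with 1 library left out. That of *Igf2* was 0.47 with both FPKM pseudocounts, 1 and 0.1. That of *Stc2* was -0.0889 with log2(FPKM + 1), -0.73 within control and 0.0062 within *Thada*-activated cells, and -0.73 to -0.00042 with 1 library left out. On log2(TPM + 1), chosen after seeing the data, the replicate 3 differences were -1.78 (*Pappa2*), 0.0202 (*Stc1*), 0.54 (*Igfbp4*) and 0.28 (*Igf2*), and the condition difference of *Stc2* was 0.26. A pseudocount pulls the values of low genes toward 0. The condition difference of *Igfals*, 0.12, turned to between -0.28 and 0.40 with 1 library left out. Apart from this the cause was not tested. Where a condition is left with replicate 3 and 1 other library, the spread is shared with the other condition. Depth limits *Igfbp5* and *Stc2*, at 0 to 16 counts.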
